A study of Mus musculus with 29 samples.

Results

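The 38 genes described here are transcripts that proliferating cells make for copying DNA and for dividing, measured in brain and blood leukocytes, microglia and brain endothelial cells of mice after stroke. They were taken by name, not by their values, from 27827 genes that occur in any of 29 deposited Drop-seq tables, and all 38 were among the 15721 genes present in every table. Of the 38, 10 act in DNA synthesis and are called S phase genes here: the licensing helicase subunits Mcm2 to Mcm7, the polymerase clamp Pcna, and the nucleotide enzymes Rrm1, Rrm2 and Tyms. A further 26 act around mitosis and are called mitosis genes: mitotic kinases and cyclins, parts of the anaphase promoting complex and spindle checkpoint, spindle and cytokinesis proteins, and chromosome and kinetochore proteins. The remaining 2, the chromatin protein Hmgb2 and the microtubule regulator Stmn1, rise in dividing cells but are also made outside the cycle and were put in neither phase.

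In Drop-seq each cell shares a droplet with a bead whose barcode tags its RNA. The study followed C57BL/6J mice after transient occlusion of the middle cerebral artery, a model of ischemic stroke, or after sham surgery. Its young mice were males of 8 to 10 weeks and its aged mice were of 17 to 20 months. Brain tissue was digested with papain in the presence of actinomycin D, which blocks new transcription, 4 to 5 hemispheres were pooled per library, and leukocytes, microglia and endothelial cells were sorted. For young brain there were 4 sham libraries at day 2, 4 stroke libraries at day 2 and 4 stroke libraries at day 14. For aged brain there were 2 sham libraries at day 2 (1 male, 1 female), 3 stroke libraries at day 2 (1 male, 2 female) and 1 stroke library at day 14 (female). Blood came from young mice only, 2 mice pooled per library after red cell lysis and depletion of Ter-119 positive cells, with 4 sham libraries at day 2, 4 stroke libraries at day 2 and 3 stroke libraries at day 14. All sham libraries were from day 2, so the day 14 comparisons against sham compare different times after surgery. The p-values measure the spread between these libraries.

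A cell enters the cycle when cyclin-dependent kinases release the E2F transcription factors, which turn on the genes of DNA replication. Genes of mitosis follow later, when the DREAM complex that represses them in resting cells gives way to the activators B-Myb and FoxM1. Their promoters often carry a cell cycle homology region, the element the MuvB core of DREAM binds, together with CCAAT boxes bound by NF-Y. Microglia, the resident macrophages of the brain, renew slowly in the healthy adult and can divide locally after injury. Monocytes, neutrophils and most lymphocytes in blood are products of dividing precursors in bone marrow, thymus or lymphoid tissue and normally circulate in a resting state.

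The promoters of 5 members show how these elements are placed in S phase and mitosis genes that the results below turn on. Each is the 180 bases before the start site, from RefSeq on GRCm38.p6, written 5′ to 3′ on the strand of the gene. Capitals mark matches on either strand to the cell cycle homology region (TTTGAA or TTCGAA), the E2F motif (TTCGCGC or TTGGCGC) and the CCAAT box (CCAAT). Mcm6 lies at chr1:128359706-128359885 on the minus strand, Pcna at chr2:132253181-132253360 on the minus strand, Ube2c at chr2:164769749-164769928 on the plus strand, Cdc20 at chr4:118437344-118437523 on the minus strand and Cdk1 at chr10:69352913-69353092 on the minus strand.
Mcm6, helicase subunit: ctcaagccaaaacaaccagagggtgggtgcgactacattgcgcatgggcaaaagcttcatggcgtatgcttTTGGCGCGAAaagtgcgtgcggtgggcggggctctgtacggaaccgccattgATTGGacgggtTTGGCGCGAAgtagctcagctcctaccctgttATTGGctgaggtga
Pcna, polymerase clamp: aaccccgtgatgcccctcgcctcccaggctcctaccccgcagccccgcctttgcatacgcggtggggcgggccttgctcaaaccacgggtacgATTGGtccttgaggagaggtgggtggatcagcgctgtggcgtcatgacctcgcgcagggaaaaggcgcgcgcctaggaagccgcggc
Ube2c, ubiquitin-conjugating enzyme of the anaphase promoting complex: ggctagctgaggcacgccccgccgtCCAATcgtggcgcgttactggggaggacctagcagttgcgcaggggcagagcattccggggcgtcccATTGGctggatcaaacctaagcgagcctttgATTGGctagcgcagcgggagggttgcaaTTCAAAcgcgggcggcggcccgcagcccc
Cdc20, activator of the anaphase promoting complex: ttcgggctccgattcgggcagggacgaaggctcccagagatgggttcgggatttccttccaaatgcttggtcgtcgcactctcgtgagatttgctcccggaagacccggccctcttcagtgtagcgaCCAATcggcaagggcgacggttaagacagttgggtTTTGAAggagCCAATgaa
Cdk1, the mitotic kinase: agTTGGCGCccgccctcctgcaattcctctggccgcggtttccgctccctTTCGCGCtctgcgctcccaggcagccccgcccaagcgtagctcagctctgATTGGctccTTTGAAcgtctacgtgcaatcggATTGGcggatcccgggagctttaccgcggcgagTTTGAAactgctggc
In these windows the Mcm6 promoter held 4 E2F matches, which are overlapping pairs on opposite strands, and no cell cycle homology region. Cdk1 held 2 E2F matches and 2 cell cycle homology regions. Ube2c and Cdc20 each held 1 cell cycle homology region near the start site, with 3 and 2 CCAAT boxes. Pcna held 1 CCAAT box alone.

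Windows from 250 bases before to 50 bases after the start site were found by symbol for 33 of the 38 members; Ccna2, Tpx2, Aurkb, Mcm4 and Stmn1 were not matched. A CCAAT box stood in 28 of the 33 windows (84.8%), against 34.5% of 27025 genes with a window of the same length. A cell cycle homology region stood in 13 (39.4%, against 17.4% of all genes) and an E2F motif in 5 (15.2%, against 3.23%). All 13 members with a cell cycle homology region also had a CCAAT box. By phase, 10 of 23 mitosis genes and 2 of 9 S phase genes held the homology region, and 3 of 23 and 2 of 9 held the E2F motif. Of 91 matches, 2 overlapped a different motif, and 5 members held none of the 3 motifs in this window. These are matches of letters and were not tested as binding sites.

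The 29 libraries held 106977 cells, 55268 from brain and 51709 from blood, with 819438 to 5855050 expected counts per brain library and 966914 to 5232660 per blood library. Median counts per cell were 321 to 1363 in brain and 341 to 694 in blood, and 345 of 106624 barcodes occurred in 2 or more libraries. Cell types are the authors' deposited annotation. For microglia, T, B, NK and endothelial cells, brain dendritic cells, neutrophils, monocytes and monocyte-derived cells, the marker list of the labelled type had the highest mean level per gene of the lists compared. In brain cells labelled border-associated macrophages and in blood cells labelled dendritic, the list of monocyte and macrophage markers stood highest instead. In blood cells annotated as precursors the neutrophil list stood highest, then the lists of immature neutrophils and of monocytes and macrophages, over all groups pooled; at day 14 the monocyte and macrophage list stood highest. The summed blood progenitor list held 88.3 to 135 CPM by group in precursors with mitosis transcripts. Values per library are counts of a cell type summed over its cells and scaled to 1000000 counts of that type (CPM). In addition, a cell was counted as carrying mitosis transcripts when at least 2 different mitosis genes had a rounded count of 1 or more, and as carrying S phase transcripts by the same rule over the S phase genes.

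Cells with mitosis transcripts were concentrated in microglia after stroke, in a precursor population of blood and, at a lower level, in brain T cells. Microglia held 1477 of them, 79.6% of all such brain cells, followed by monocyte-derived cells (132), T cells (96) and dendritic cells (70). In blood the cells annotated as precursors held 219, or 59.3%, although they numbered only 263 cells, and neutrophils held 48, B cells 35 and monocytes 31. Over all young brain cells the count was 40 of 15029 in sham, 1113 of 14823 at day 2 and 284 of 13417 at day 14. Free RNA in droplets can give a cell such transcripts. Sham brain endothelial cells (median 389 counts per cell) gave a share of 0.112%, and those of day 2 after stroke 0.602%, or 0.141% with cells thinned to 500 counts. Blood neutrophils, which do not divide in circulation (median 633 counts in sham), gave 0.147% in sham and 0.386% at day 2, but most of their mitosis sum came from Kif23 alone. These cells set no single background level. The 0.184% of sham microglia lies within their range and was not read as expression.

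**Figure D1:**
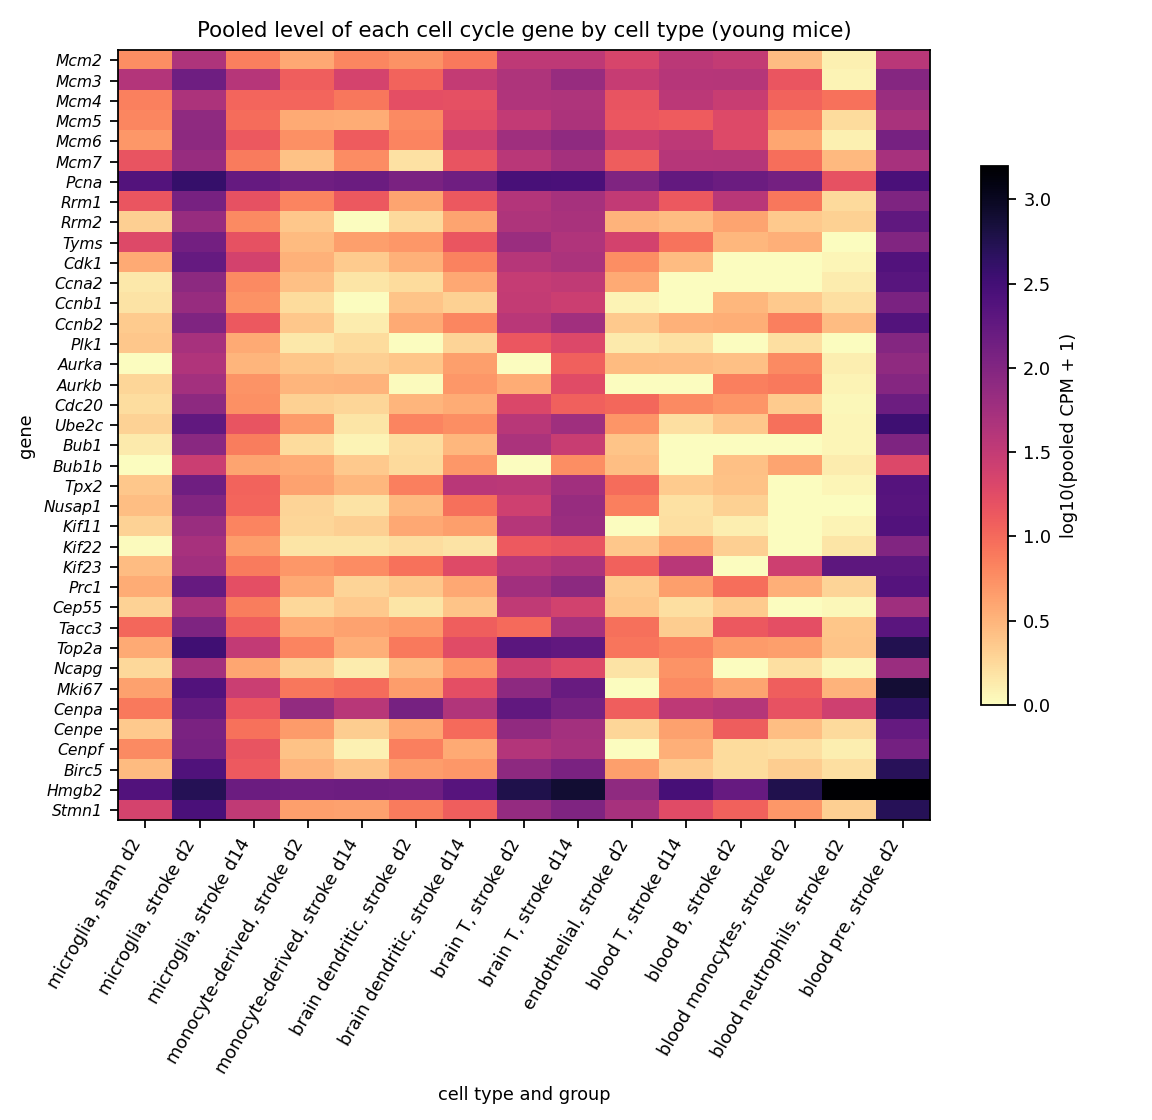
Heat map of the 38 genes (rows) in 15 combinations of cell type and group of young mice (columns); colour is log10 of the pooled CPM plus 1. The mitosis genes are high in blood precursors, in microglia at day 2 and, more weakly, in brain T cells at day 14, while Kif23 in neutrophils, Cenpa in several types and Hmgb2 and Pcna in most types are seen outside these.

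Microglia at day 2 after stroke were compared with sham microglia to ask which cycle genes changed in the acute phase. Of the 38 members, 36 passed the filter on low counts and 35 of those were higher at day 2 at an adjusted p under 0.05, with none lower; over all 10145 genes tested, 15.7% were called higher and 31.4% were called in either direction. The tested members had a median log2 fold change of 5.78, beside -0.05 for all genes. Most mitosis genes were near 0 in sham, so they passed the filter through the stroke libraries, and these counts describe the members rather than test them. All 24 mitosis genes tested were higher (median 6.07), and so were 9 of 10 S phase genes (median 3.03). Day 2 replicate 3 held only 58 microglia, with a median of 338 counts per cell, and was low for several members. Its microglia held 26321 counts in all, with 46.4 of them over the mitosis genes. The CPM of a single gene in that library therefore rests on few counts, also where it is high. Without replicate 3, 37 members were called. Low values were not confined to these few shallow cells. In the 2180 monocyte-derived cells of day 2 replicate 3, Mcm6 stood at 0.0211 CPM, against 6.86, 8.79 and 5.60 CPM in the other day 2 libraries. Mcm6 stood at 0.00426 CPM in border-associated macrophages of that library, but at 29.5 CPM in its endothelial cells. Replicate 4 of day 2 held low values too. In its monocyte-derived cells Rrm1 stood at 0.00435 CPM and Tyms at 5.45e-07 CPM. Top2a and Mki67 stood at 0 CPM in these cells, beside 286 and 179 CPM in microglia of the same library. The cause was not tested.

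Among the licensing and fork genes, 6 of 7 were higher (median 2.88). Mcm3, a subunit of the replicative helicase, stood at 32.2, 46.5, 53.8 and 34.7 CPM in the sham libraries and 119, 139.8, 20.1 and 150.2 CPM in the day 2 libraries. All day 2 libraries but replicate 3 were above every sham library, and replicate 3 was below them all (log2 fold change 1.77 ± 0.321 (SE), adjusted p = 0.00149). Mcm6 of the same helicase stood at 5.39, 2.82, 1.71 and 5.55 CPM in the sham libraries and 64.8, 53.6, 0.0193 and 92.0 CPM in the day 2 libraries, again with replicate 3 alone at the bottom. Pcna, the sliding clamp that is also used in DNA repair, was the member that did not pass: it stood at 108, 273, 322 and 261 CPM in the sham libraries and 441, 339.6, 297 and 382 CPM in the day 2 libraries, the groups overlapped, and the log2 fold change was 0.76 ± 0.369 (adjusted p = 0.126). Pcna was already present in sham microglia, at 241 ± 92.4 CPM (SD, n = 4).

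All 3 genes of deoxynucleotide synthesis were higher (median 3.17). Tyms, which makes thymidylate, stood at 16.6, 18, 19.1 and 20.2 CPM in the sham libraries and 127, 85.1, 42.1 and 142 CPM in the day 2 libraries. Rrm1, the large subunit of ribonucleotide reductase, stood at 10.4, 12.4, 13.3 and 17.7 CPM in the sham libraries and 132, 79.2, 43.1 and 125 CPM in the day 2 libraries. Its small subunit Rrm2, which is made mainly in S phase, stood at 0, 1.39, 1.03 and 2.22 CPM in the sham libraries and 56.4, 42.4, 72.2 and 76.7 CPM in the day 2 libraries. In all 3 the groups did not overlap, and log2 fold changes were 2.77 ± 0.344 for Tyms (adjusted p = 0.000116), 3.17 ± 0.336 for Rrm1 (adjusted p = 3.57e-05) and 5.83 for Rrm2. Rrm1 was detected in every sham library, and Rrm2 was at 0 in one of them.

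The mitotic kinases and cyclins were near 0 in sham and all 7 were higher at day 2 (median 6.30). Cdk1, the kinase that drives entry into mitosis, stood at 4.15, 2.20, 0 and 3.47 CPM in the sham libraries and 205, 98.0, 30.8 and 171 CPM in the day 2 libraries (log2 fold change 5.92 ± 0.574 (SE), adjusted p = 2.13e-05), with no overlap between groups. Ccnb2, a B-type cyclin and partner of Cdk1, stood at 1.11, 4.35e-05, 2.13 and 2.25 CPM in the sham libraries and 148, 78.7, 0 and 92.2 CPM in the day 2 libraries. Its log2 fold change was 6.30 ± 0.628 (adjusted p = 2.54e-05), although replicate 3 of day 2 was listed at 0. Aurka, the centrosomal Aurora kinase, had no count in the 4 sham libraries and 39.4, 14.7, 100.2 and 50.2 CPM at day 2. Against the 3 counts over the sham group that a count of 0 allows, Aurka was at least 80.4-fold higher. Sham libraries held 2.28 counts of Ccna2 and 2.84 of Ccnb1, so their pooled ratios of 203 (63.7 to 1921) and 131 (41.9 to 603) carry wide intervals, which cover counting error only.

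The anaphase promoting complex and the spindle checkpoint gave the highest median log2 fold change of the roles ( 7.25 over 3 tested genes). Ube2c stood at 1.66, 0, 2.05 and 0.731 CPM in the sham libraries and 228, 105, 57.1 and 182 CPM in the day 2 libraries (log2 fold change 7.25 ± 0.661 (SE), adjusted p = 1.54e-05). Cdc20 stood at 0.323, 0.249, 2.93 and 0 CPM in the sham libraries and 92.1, 52.1, 212 and 78.5 CPM in the day 2 libraries (log2 fold change 6.83 ± 0.831 (SE), adjusted p = 9.65e-05). In both the lowest day 2 library was far above the highest sham library, but for Ube2c that library was replicate 3, with few counts. The promoters of these genes, printed above, each hold 1 cell cycle homology region within 30 bases of the start site. The checkpoint kinase Bub1 had 1.96 counts in all sham libraries, a pooled ratio of 251 (67.8 to 2042). Bub1b had none and was not tested; its pooled day 2 level was at least 49.8-fold higher.

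Spindle and cytokinesis genes were higher in all 7 tested cases (median 5.78). Prc1, which bundles the microtubules of the central spindle, stood at 0.372, 4.31, 2.48 and 2.93 CPM in the sham libraries and 157, 130.1, 134 and 173 CPM in the day 2 libraries (log2 fold change 5.94 ± 0.416 (SE), adjusted p = 2.35e-06). The value of replicate 3 rests on few counts. Tpx2, an activator of Aurora A, stood at 0, 4.19, 0 and 0 CPM in the sham libraries and 190.3, 141, 174 and 120.4 CPM in the day 2 libraries (log2 fold change 6.83 ± 0.688 (SE), adjusted p = 2.66e-05). Neither gene overlapped between groups. Kif22, a chromosome-arm kinesin, did not pass the filter.

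Chromosome and kinetochore genes were higher in 7 of 7 cases (median 6.19). Top2a, the topoisomerase that disentangles sister chromatids, stood at 0.438, 0.192, 9.77 and 4.27 CPM in the sham libraries and 457, 319, 169 and 286 CPM in the day 2 libraries (log2 fold change 6.89 ± 0.660 (SE), adjusted p = 2.10e-05). Mki67, which coats mitotic chromosomes and encodes the proliferation antigen Ki-67, stood at 0, 0.197, 4.99 and 11 CPM in the sham libraries and 379, 302, 16.2 and 179 CPM in the day 2 libraries (log2 fold change 6.19 ± 0.892 (SE), adjusted p = 0.000327). Both were higher in every day 2 library than in any sham library, but replicate 3 reached only 16.2 CPM of Mki67. Birc5, or survivin, a subunit of the chromosomal passenger complex, stood at 0, 1.04, 5.16 and 3.11 CPM in the sham libraries and 254, 194, 99.7 and 259 CPM in the day 2 libraries.

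Of the genes also used outside the cycle, Stmn1 stood at 12.1, 29.8, 20.7 and 24.6 CPM in the sham libraries and 296, 251, 109 and 281 CPM in the day 2 libraries (log2 fold change 3.68 ± 0.378 (SE), adjusted p = 2.99e-05), without overlap. Hmgb2 stood at 165, 255, 426 and 182 CPM in the sham libraries and 754, 603, 244 and 421 CPM in the day 2 libraries, the groups overlapped, and its log2 fold change of 1.17 ± 0.422 had an adjusted p of 0.0484. Hmgb2 lost that call with DESeq2, without the filter on low counts, without TMM scaling, without the 5% of cells with the most counts and with a replicate block.

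The 53 other cell cycle genes of a second list changed less uniformly: 34 were tested, 19 were higher and 2 lower. All 9 tested origin and fork genes were higher, with thymidine kinase Tk1 at 5.63 and the maintenance methylation factor Uhrf1 at 5.61 log2 units. Of 5 G1 cyclins and kinases 1 was higher. Cdkn1c, the p57 inhibitor of cyclin-dependent kinases, fell from 40.9 to 3.38 CPM (log2 fold change -2.92 ± 0.483 (SE), adjusted p = 0.000887). The retinoblastoma gene Rb1, which holds E2F in check, also fell (log2 fold change -1.05 ± 0.288 (SE), adjusted p = 0.0148). The inhibitor gene Cdkn1a went the other way, without overlap. It stood at 65.9, 131, 177 and 60.7 CPM in the sham libraries and 288, 267, 591 and 362 CPM in the day 2 libraries.

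At day 14 after stroke, against the same 4 sham libraries that the day 2 comparison used, Top2a, Mki67 and Cdk1 were among the members still higher in microglia, and Pcna, Mcm3 and Tyms were among those not called. Of 36 members tested 20 were higher and none lower, beside 10.6% of all genes called higher and 15.2% called in either direction. Their median log2 fold change was 2.55 (2.32 with Aurka at its bound), against -0.04 over all genes. By phase 18 of 24 mitosis genes (median 2.95) and 2 of 10 S phase genes (median 0.69) were called. The S phase genes called were Mcm6 (2.12) and Rrm2 (2.58). When only these groups were fitted, without day 2, fewer members passed the filter and 8 of 19 tested were called. The others passed through the day 2 libraries, so the counts and the split by phase describe the members rather than test them.

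Top2a stood at 31.5, 25.7, 32.8 and 30.7 CPM in the day 14 libraries, each above the highest sham library (log2 fold change 3.79 ± 0.642 (SE), adjusted p = 0.00150). Mki67 stood at 26.2, 12.5, 23.9 and 41.4 CPM in the day 14 libraries, likewise without overlap (log2 fold change 3.25 ± 0.866 (SE), adjusted p = 0.0235). Cdk1 stood at 22.9, 12.1, 34.8 and 15.8 CPM in the day 14 libraries (log2 fold change 3.48 ± 0.565 (SE), adjusted p = 0.00105). For all 3 genes the mean at day 14 lay between those of sham and day 2. Prc1 stood at 11.9, 13.3, 17.3 and 21 CPM in the day 14 libraries (log2 fold change 2.99 ± 0.412 (SE), adjusted p = 0.000304) and Ube2c at 18.4, 6.24, 19.6 and 5.76 CPM in the day 14 libraries (log2 fold change 3.90 ± 0.684 (SE), adjusted p = 0.00197). Ccnb2 had a log2 fold change of 3.57 ± 0.645 (adjusted p = 0.00245). The pooled ratio of Bub1 over its 1.96 sham counts was 18 (4.64 to 153), and Aurka was at least 3.93-fold higher. The mitosis genes that did not pass were Plk1, Cdc20, Kif23, Tacc3, Cenpa and Cenpf. Tacc3, a centrosomal partner of Aurora A, stood at 6.09, 9.97, 11.4 and 11.3 CPM in sham and 10.8, 8.53, 12.6 and 11.2 CPM at day 14 (log2 fold change 0.62, adjusted p = 0.189).

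Among S phase genes at day 14, Pcna stood at 150, 98.9, 134 and 284 CPM in the day 14 libraries (log2 fold change -0.10 ± 0.361, adjusted p = 0.879). Mcm3 stood at 35.1, 27.8, 50.8 and 39.0 CPM in the day 14 libraries (log2 fold change 0.33) and Tyms at 13.2, 9.97, 22.7 and 11.8 CPM in the day 14 libraries (log2 fold change 0.11). Rrm1 stood at 12.4, 10.9, 15.2 and 20.7 CPM in the day 14 libraries (log2 fold change 0.61 ± 0.332, adjusted p = 0.216). All of these overlapped sham, and the signs of the changes in Pcna, Mcm3 and Tyms turned under other settings given in the closing section. Hmgb2 (-0.32, adjusted p = 0.628) and Stmn1 (0.92, adjusted p = 0.0924) did not pass either. Of the other cycle genes 3 of 34 were higher and 2 lower. Cdkn1a, the p21 inhibitor that arrests cells after DNA damage and in differentiation, rose from 108 to 372 CPM (log2 fold change 2.21 ± 0.402 (SE), adjusted p = 0.00261). The INK4 inhibitor Cdkn2c also rose (1.67), and Cdkn1c (-2.01) and E2f3 (-0.85) were lower.

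The direct comparison of day 14 with day 2, which uses the same stroke libraries, gave 34 of 36 tested members lower at day 14, beside 3.46% of all genes called lower and 6.93% called in either direction. Many mitosis genes passed the filter through the day 2 libraries, so these counts too describe the members rather than test them. Their median log2 fold change was -2.98, against 0.10 over all genes. S phase genes were lower in 9 of 10 cases (median -2.52) and mitosis genes in 24 of 24 (median -3.31). Top2a fell by 3.11 on the log2 scale (SE 0.512, adjusted p = 0.00337), Mki67 by 2.94 (adjusted p = 0.0257) and Cdc20 by 4.0. Pcna (-0.86, adjusted p = 0.186) and Hmgb2 (-1.49, adjusted p = 0.0507) were the members tested that did not pass. All 9 origin and fork genes tested in the second list were lower as well, Tk1 by 3.46 and Uhrf1 by 3.42.

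**Figure D2:**
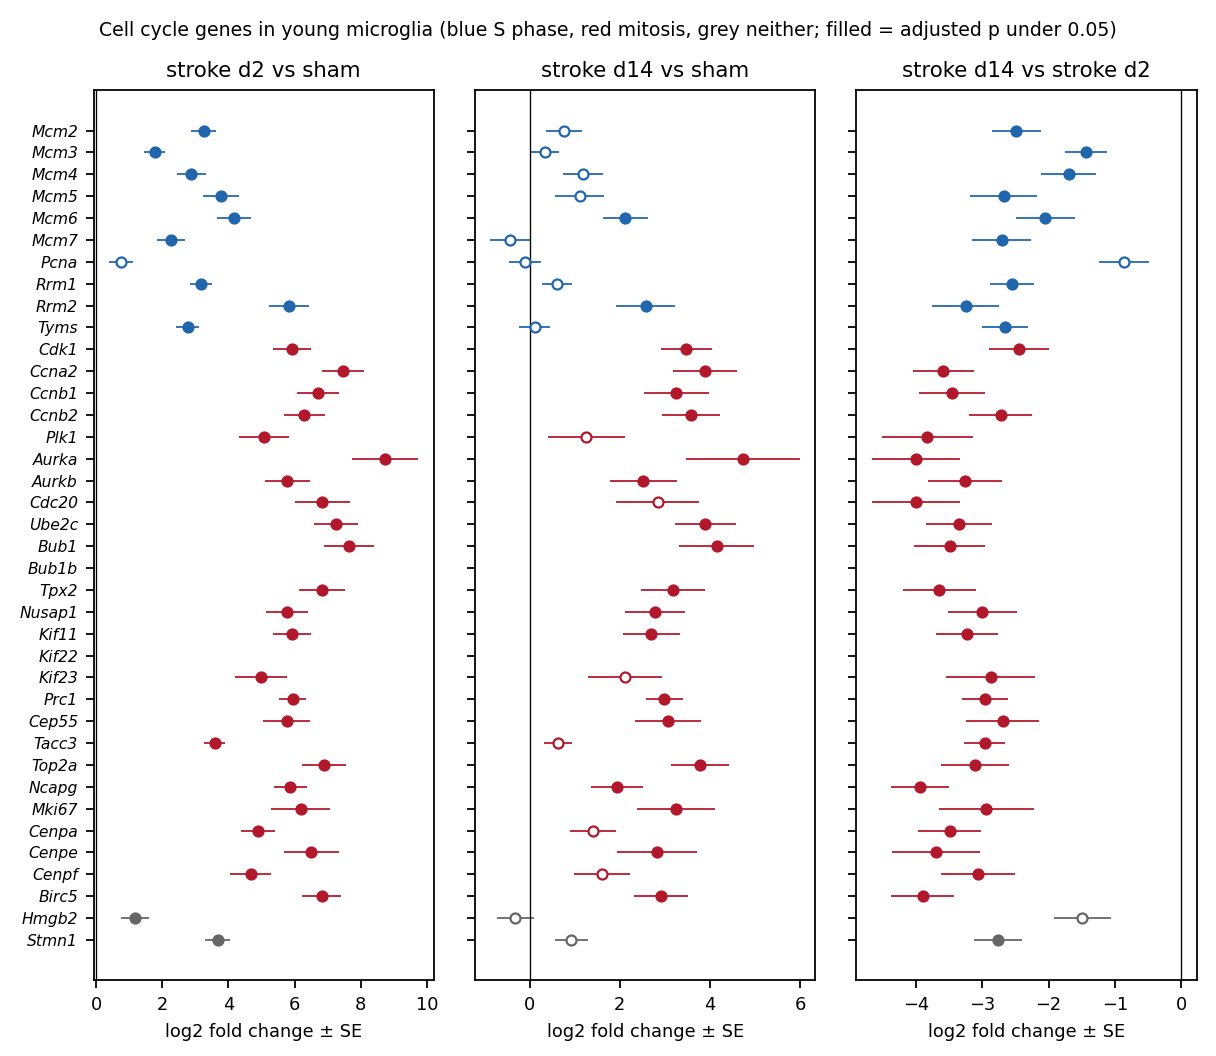
Log2 fold change with its standard error for each member in young microglia in 3 panels (day 2 against sham, day 14 against sham, day 14 against day 2); S phase genes are blue, mitosis genes red, and Hmgb2 and Stmn1 grey, and filled points passed an adjusted p of 0.05. At day 2 the mitosis genes lie further from 0 than most S phase genes, at day 14 most S phase points are open, and Bub1b and Kif22 are blank because they were not tested.

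Both the S phase and the mitosis sum of microglia were higher at day 2 than in sham, and the mitosis sum rose further. Summed over the 26 mitosis genes, sham microglia held 40.4, 31.5, 71.1 and 71.8 CPM, day 2 microglia 3764, 2464, 1764 and 2753 CPM and day 14 microglia 281, 139.7, 295 and 262 CPM. Summed over the 10 S phase genes, the values were 209, 384, 437 and 365 CPM in sham, 1149, 912, 498 and 1224 CPM at day 2 and 252, 193, 297 and 390.0 CPM at day 14. The mitosis sums of the 3 groups did not overlap, whereas the S phase sums of day 14 overlapped those of sham. The log2 ratio of S phase over mitosis was 2.74 ± 0.593 in sham, -1.53 ± 0.294 at day 2 and 0.22 ± 0.350 at day 14 (SD, n = 4 each). It was 2.37, 3.61, 2.62 and 2.35 in the sham libraries, -1.71, -1.43, -1.82 and -1.17 at day 2 and -0.15, 0.46, 0.01 and 0.57 at day 14, so the groups held separate ranges. Without Top2a, Mki67 and Pcna the mean ratio of sham stood 3.30 above that of day 2 instead of 4.27, and day 14 stood 1.38 above it instead of 1.76. The ratios are sums over the members and were not given a p-value. In sham the S phase sums were mostly Pcna (108, 273, 322 and 261 CPM), and the share of cells with mitosis transcripts was not read as expression. The sham ratio is therefore not read as a balance of phases.

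**Figure D3:**
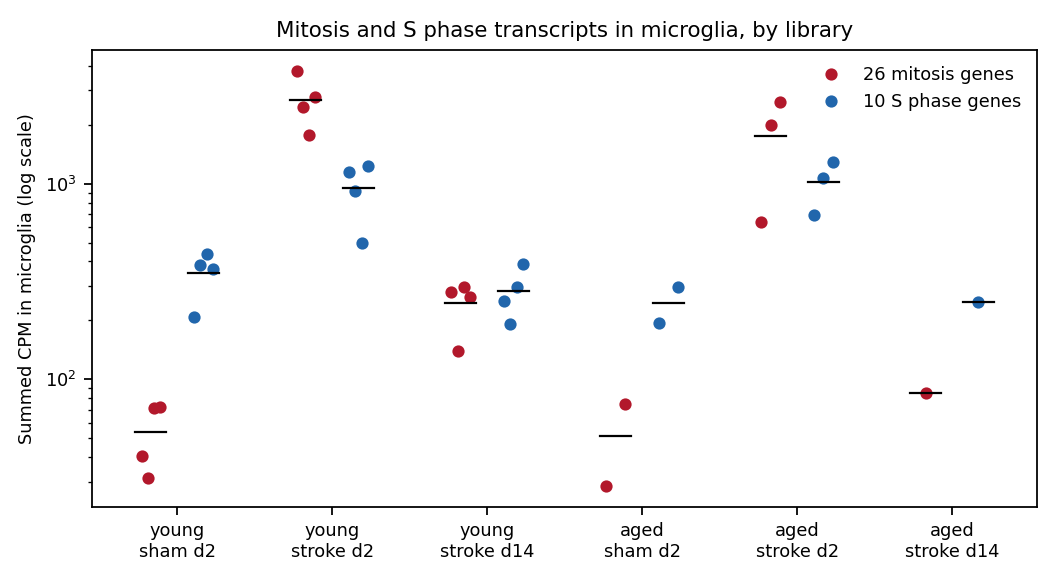
Summed CPM (log axis) of the 26 mitosis genes (red) and the 10 S phase genes (blue) in microglia, 1 point per library and phase in the 6 brain groups, with a bar at the mean. Mitosis sums lie below S phase sums in every sham library and above them in every young day 2 library; in aged stroke at day 2 the male library is the exception, with a mitosis sum of 635 CPM below its S phase sum of 694 CPM.

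Counted by cell, at least 2 mitosis genes were found in 20 of 10874 cells (0.184%) of sham microglia (exact 95% interval 0.112 to 0.284%), 960 of 2693 cells (35.6%) at day 2 (33.8 to 37.5%) and 151 of 5170 cells (2.92%) at day 14 (2.48 to 3.42%). Intervals are exact binomial and cover counting error only. The libraries gave 0.126, 0.152, 0.287 and 0.194% in sham, 40.5, 22.9, 1.72 and 41.5% at day 2 and 4.54, 1.78, 5.85 and 2.02% at day 14. Replicate 3 of day 2 stood far below the rest of its group, with 1 of 58 shallow cells. Microglia at day 2 were also deeper, with a median of 916 counts per cell against 452 in sham and 636 at day 14. After each cell was thinned to 500 counts and shallower cells were left out, which kept 5169, 1933 and 3186 cells, the shares were 0.251% in sham, 27.4% at day 2 and 1.98% at day 14. The order of the groups was the same at equal depth.

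S phase transcripts in at least 2 genes were found in 0.892% of sham microglia, 28.7% at day 2 and 3.71% at day 14. At day 2, 526 cells carried both sets, 248 the S phase set alone and 434 the mitosis set alone. At day 14 the numbers were 40, 152 and 111, and in sham 8, 89 and 12. Cells with the S phase set alone were thus fewer than those with the mitosis set alone at day 2 and more in sham and at day 14. The groups differ in depth, and this split was not made with thinned cells. Pcna and Mcm3 together meet the S phase rule, and both were present in sham and not called at day 14. The split is therefore not read as a balance of phases.

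Microglia with mitosis transcripts held transcripts that define microglia. At day 2 the counted cells held 1436 CPM of Cx3cr1, 904 CPM of Tmem119 and 914 CPM of P2ry12. The other day 2 microglia held 1639, 921 and 1495 CPM. Of the monocyte genes, the chemokine receptor Ccr2 stood at 2.30 against 5.99 CPM and Ly6c2 at 3.14 against 7.48 CPM, and the whole monocyte list at 559.5 against 904 CPM. The 20 counted sham cells were different, with 2054 CPM of the monocyte list against 302 CPM in other sham microglia. The part of these transcripts in the sham share was not tested. Counted cells at day 2 were deeper, with a median of 2013 counts against 640.2.

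The authors' microglial subtypes, which were clustered on these same genes and are therefore only described, split the counted cells unevenly. At day 2 the subtype Mg5 held 767 of the 960 counted microglia. In Mg5, 84.2% of 911 cells had mitosis transcripts and 53.9% had S phase transcripts. In Mg4 the order was the reverse, 14.6% and 23.0% of 1034 cells. Mg1, Mg2 and Mg3 lay at 1.19%, 2.74% and 8.27%. Mg8 gave 42.6% of 47 cells, but its cells were deep (median 4300.0 counts), and thinned to 500 counts none remained. Mg5 was also found outside day 2: it gave 16.4% of 116 sham cells, 79.6% of 113 cells at day 14 and 87.1% of 263 cells in aged stroke at day 2.

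**Figure D4:**
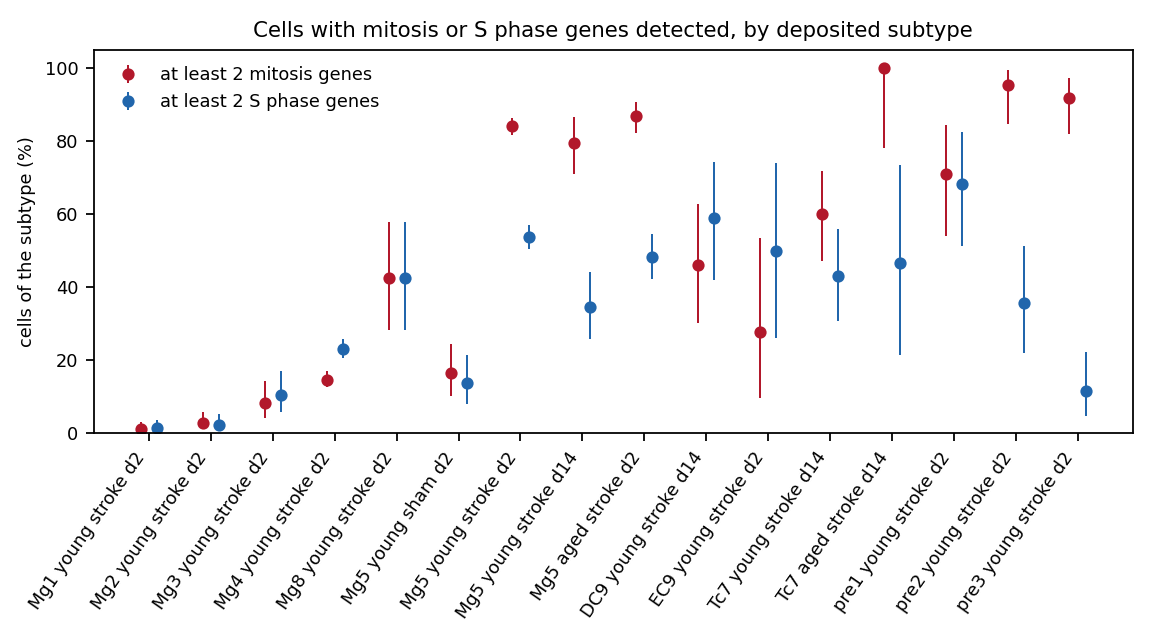
Percent of cells with at least 2 mitosis genes (red) and at least 2 S phase genes (blue) in deposited subtypes of microglia, brain dendritic cells, endothelial cells and T cells and of blood precursors, with exact 95% intervals. Mg5, Tc7 and the precursors pre1, pre2 and pre3 stand highest for mitosis; in Mg4 and DC9 the blue point lies above the red.

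In aged mice the same comparison, stroke at day 2 (n = 3) against sham (n = 2), had all 38 members tested and 29 higher, beside 1.78% of all genes called higher and 2.3% in either direction. The median log2 fold change of the members was 4.48 (4.40 with genes at 0 in sham at their bounds), against -0.02 over all genes. Higher were 22 of 26 mitosis genes and 6 of 10 S phase genes. Many members were near 0 in aged sham and passed the filter through the stroke libraries, so the counts are descriptions. This count depended on few libraries: it was 0 without the aged sham female, 6 without the aged sham male and 10 without the first aged stroke female, and 0 when only the aged groups were fitted.

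Top2a stood at 2.44 and 11.7 CPM in the aged sham libraries (male, female) and 76.8, 243 and 337 CPM in the aged stroke libraries (male, then the females) (log2 fold change 4.63 ± 0.913 (SE), adjusted p = 0.0145). Mki67 stood at 0 and 3.10 CPM in the aged sham libraries (male, female) and 49.9, 213 and 299 CPM in the aged stroke libraries (male, then the females) (log2 fold change 6.27 ± 1.36 (SE), adjusted p = 0.0238). Prc1 stood at 0 and 3.91 CPM in the aged sham libraries (male, female) and 45.2, 113 and 223 CPM in the aged stroke libraries (male, then the females) (log2 fold change 5.44 ± 0.825 (SE), adjusted p = 0.00805). In each the male stroke library was the lowest of its group and still above both sham libraries. Cdk1 stood at 0 and 5.05 CPM in the aged sham libraries (male, female) and 36.2, 113 and 72.3 CPM in the aged stroke libraries (male, then the females), with a log2 fold change of 4.39 ± 0.844. Rrm2 and Aurka had no count in aged sham and were at least 23.8-fold and 15.7-fold higher. Pcna stood at 73.0 and 159.5 CPM in the aged sham libraries (male, female) and 399.7, 472 and 373 CPM in the aged stroke libraries (male, then the females) (log2 fold change 1.88, adjusted p = 0.0514). The other members that did not pass were Mcm3 (log2 fold change 1.26), Mcm4 (2.45), Mcm7 (1.44), Hmgb2 (1.41), Ccnb1, Aurkb, Bub1b and Kif22. The last 4 had 1 to 3 counts in aged sham, with pooled ratios of 21.6 (7.07 to 108), 11.4 (3.61 to 58.7), 25.9 (4.28 to 1074) and 15.4 (3.84 to 131). Of 49 other cycle genes tested 10 were higher and 1, Cdkn1c, was lower (-2.23).

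Whether the response differed with age was tested by the difference of the 2 effects, aged minus young. All young libraries were male and the aged ones of both sexes, so age and sex are partly confounded in it. No member was called by edgeR's quasi-likelihood test, as none of 11096 genes was (0%), and with sex as a covariate the count of members was 0 as well. At an unadjusted p under 0.05 there were 2 members, Kif22 and Ncapg, and 623 genes in all, and DESeq2 called no member and 1 gene. The median difference was -0.69 over the members and -0.03 over all genes. Top2a differed by -2.31 ± 1.16 (adjusted p = 0.768), Mki67 by 0.02 and Pcna by 1.08. Standard errors were 0.926 for Mki67 and 0.576 for Pcna, and what size of difference this contrast could detect was not tested. Summed, aged stroke libraries held 635, 1993 and 2622 CPM of mitosis genes (male, then the females) and a log2 ratio of S phase over mitosis of -0.60 ± 0.632 (SD, n = 3). Mitosis transcripts in at least 2 genes were found in 326 of 1452 cells (22.5%) of aged stroke microglia at day 2 and 9 of 2714 cells (0.332%) of aged sham microglia. The male stroke library gave 11.3% and the female libraries 25.4% and 27.1%.

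The 1 aged library of day 14 has no replicate. Its microglia held 85.2 CPM of mitosis genes and 249 CPM of S phase genes, and 11 of 1804 cells (0.610%) had mitosis transcripts (exact 95% interval 0.305 to 1.09%). Top2a stood at 2.23 CPM and Mki67 at 2.99 CPM, neither above the higher of the aged sham libraries. The 11 counted cells held 10456 CPM of the monocyte list, with Ly6c2 at 2818 CPM, and 6066 CPM of the microglia list, against 3249.6 and 13482 CPM of the lists in the library's other microglia. The part of monocyte transcripts in this share was not tested.

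Among the other brain myeloid cells of young mice after stroke, monocyte-derived cells, dendritic cells and border-associated macrophages had mitosis transcripts in 0.552% to 2.51% of cells by day, beside 35.6% and 2.92% of microglia at days 2 and 14. The highest, dendritic cells at day 14, gave 0.773% with cells thinned to 500 counts, where microglia gave 1.98%. These differences between cell types were not tested. The day 2 shares of monocyte-derived and dendritic cells pool libraries with and without counts of Top2a and Mki67. In monocyte-derived cells, which enter the brain from blood after stroke, mitosis transcripts were found in 95 of 7225 cells (1.31%) at day 2 and 16 of 2898 cells (0.552%) at day 14. The day 2 libraries gave 3.61, 1.16, 0.138 and 0.204%, with replicate 1 highest, and thinned to 500 counts the pooled shares were 0.285% and 0.0923%. Mitosis sums of the day 2 libraries were 214.9, 133.9, 82.04 and 68.02 CPM. Without Top2a and Mki67 they were 184.7, 112.2, 82.04 and 68.02 CPM, so replicates 3 and 4 held no counts of either gene. The cause was not tested. The pooled day 2 share is therefore not read as a level of these cells, nor is its difference from day 14 or from microglia. Of 7 members tested between the days none was called by edgeR (0 by DESeq2), beside 1.79% of all genes. Cenpa, the histone H3 variant of centromeres, made up 57.3% of the mitosis sum at day 2. It stood at 68.1 ± 21.9 CPM at day 2 and 41.6 ± 14.0 CPM at day 14 (SD, n = 4), a log2 fold change of -0.75 (adjusted p = 0.433).

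In brain dendritic cells Cenpa was lower at day 14 than at day 2. It stood at 38.6, 22.6, 50.2 and 52.9 CPM at day 14, 121, 129, 134 and 87.8 CPM at day 2 and 99.4, 45.7, 100.0 and 26.9 CPM in sham. The days did not overlap (log2 fold change -1.53 ± 0.298 (SE), adjusted p = 0.0277), and Cenpa was the member called of 3 tested, beside 0.893% of all genes called and 0.458% called lower. The call was lost without the filter on low counts and in 8 of 12 fits that left out 1 library. Pcna and Hmgb2, the other members tested, did not pass. Mitosis transcripts were found in 19 of 1282 cells (1.48%) at day 2 and 43 of 1712 cells (2.51%) at day 14. At day 2 the mitosis sums of replicates 3 and 4, 135.6 and 96.26 CPM, were the same without Top2a and Mki67. These shares are therefore not read as a change between the days. The subtype DC9, with high H2-Aa and with Xcr1 and Flt3, gave 46.2% for mitosis and 59.0% for S phase among 39 cells of day 14; thinned to 500 counts, 16% and 32% of 25 cells.

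In border-associated macrophages, 2 members were tested between day 2 and sham and neither was called: Pcna gave -1.24 (adjusted p = 0.0638) and Hmgb2 -1.20 (adjusted p = 0.145), beside 2.67% of genes called. In brain endothelial cells Stmn1 fell at day 2. It stood at 121, 142, 161 and 136 CPM in sham, 29.9, 56.3, 46.8 and 62.2 CPM at day 2 and 116, 48.3, 59.2 and 128 CPM at day 14, and every day 2 library was below every sham library (log2 fold change -1.42 ± 0.319 (SE), adjusted p = 0.0104). Pcna (-0.45) and Hmgb2 (-0.69) were tested and not called, beside 6.45% of genes called lower and 13.3% called in all. At day 14 none of the same 3 members was called by edgeR against the same sham libraries (1 at an unadjusted p under 0.05, 0 by DESeq2), beside 0% of all genes. Endothelial cells with mitosis transcripts numbered 15 of 2491 at day 2, with 5 of 18 cells (27.8%) in subtype EC9, or 9.09% of 11 cells thinned to 500 counts.

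T cells were compared between brain and blood at day 14 after stroke, when Top2a, Mki67, Cenpa and Stmn1 were among the members higher in brain. Brain and blood libraries differ in digestion, sorting and depletion as well as in tissue, and these cannot be told apart. Of 12 members tested 10 were higher in brain (4 libraries) than in blood (3 libraries) and none lower, beside 5.73% of all genes called higher and 8% in either direction. The median log2 fold change of the members was 4.19, against 0.07 for all genes. Birc5, Tpx2, Nusap1 and Tacc3 had fewer than 3 counts in all blood T cells and passed the filter through the brain libraries, and Top2a, Mki67 and Cenpe were low in blood too, so these counts describe the members rather than test them. Top2a stood at 178, 94.8, 235 and 232 CPM in brain and 1.61, 9.05 and 7.63 CPM in blood (log2 fold change 4.71 ± 0.490 (SE), adjusted p = 0.000947). Mki67 stood at 27.4, 91.6, 143 and 334 CPM in brain and 4.85, 8.65 and 1.89 CPM in blood (log2 fold change 4.64 ± 0.736 (SE), adjusted p = 0.00572). Neither overlapped between tissues. Birc5 stood at 82.0, 64.3, 176 and 103 CPM in brain and 0, 3.79 and 0 CPM in blood. Tpx2 stood at 49.1, 32.0, 60 and 84.1 CPM in brain and 0, 1.87 and 1.92 CPM in blood, again without overlap. Over the blood counts of 1.99 for Birc5 and 1.98 for Tpx2 the pooled ratios were 93.7 (24.8 to 781) and 46.4 (12 to 398), with intervals for counting error only.

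Nusap1, which binds spindle microtubules, stood at 82.3, 32.1, 82.9 and 83.6 CPM in brain and 0, 1.72 and 0 CPM in blood (pooled ratio 121 (18.4 to 4379)). Stmn1 stood at 116, 82.6, 106 and 129 CPM in brain and 16.1, 13.2 and 22.8 CPM in blood (log2 fold change 2.49 ± 0.280 (SE), adjusted p = 0.00129). Hmgb2 was abundant in both, at 621, 853, 453 and 1179.8 CPM in brain and 301, 273 and 312 CPM in blood, and was higher in brain (log2 fold change 1.32 ± 0.341, adjusted p = 0.0488). Cenpa (log2 fold change 1.78), Cenpe (3.73) and Tacc3 (pooled ratio 42.2 (10.5 to 355)) were also higher. The only S phase members tested, Pcna and Mcm3, did not pass. Pcna stood at 114, 214, 257 and 456 CPM in brain and 154, 185 and 185 CPM in blood (log2 fold change 0.50, adjusted p = 0.475). Mcm3 had a log2 fold change of 0.74 (adjusted p = 0.191). Summed over all S phase genes, brain held 360, 477, 1000 and 898 CPM and blood 354, 421 and 389 CPM. Without Pcna the sums were 246, 263, 743 and 442 CPM in brain and 200, 236 and 203 CPM in blood. The sums were not tested. Without blood replicate 3 the number of members called was 5, and without the 5% of cells with the most counts it was 6 of those tested.

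**Figure D5:**
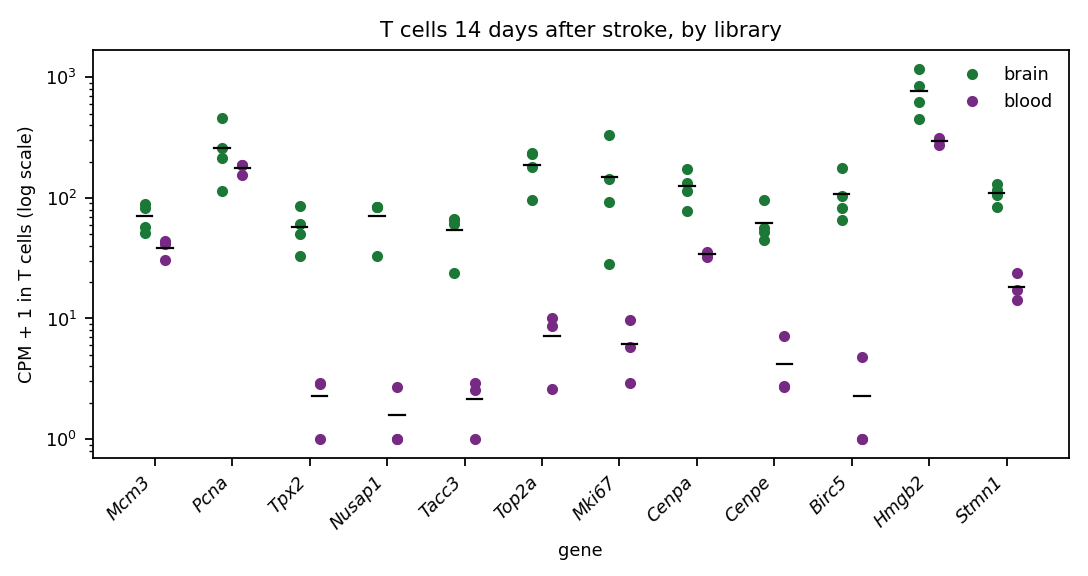
CPM plus 1 (log axis) in each library for the 12 members tested in T cells of brain (4 libraries) and blood (3 libraries) at day 14 after stroke, with a bar at the mean. Brain points lie above blood points for 10 members, and those of Pcna and Mcm3 were not called.

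Across groups, brain T cells with mitosis transcripts were 3 of 222 cells (1.35%) in sham, 9 of 215 cells (4.19%) at day 2 and 58 of 853 cells (6.8%) at day 14, where the libraries gave 8.00, 4.69, 9.42 and 6.74%. Blood T cells gave 0.359%, 0.202% and 0.294% in the same groups. These were above the share of blood neutrophils in sham and at day 14 and below it at day 2. Thinned to 500 counts, day 14 brain T cells gave 6.47% and blood T cells 0.131%. The log2 ratio of S phase over mitosis sums was 0.94 ± 0.792 in brain T cells of sham, -0.58 ± 0.595 at day 2 and -0.99 ± 0.354 at day 14 (SD, n = 4, 3 and 4). The sham libraries held only 4.97, 6.82, 5.95 and 8.87 counts of mitosis genes, so the sham ratio is not read as a balance of phases. Between day 14 and day 2 in brain, 3 members were tested (Pcna, Top2a, Hmgb2) and none was called by edgeR (0 by DESeq2), as none of 1048 genes was (0%). Top2a at day 2 stood at 358, 0, 189 and 0 CPM, a spread from 0 upward over few cells; replicate 4 held 12 T cells and was left out of the fit. Subtype Tc7, with Nkg7, Trac and Cd3d among its leading markers, held 60% counted cells among 65 at day 14. The deposited subtypes come from these same data, so the shares of DC9, EC9 and Tc7, like those of the microglial subtypes, are only described.

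In blood, no member was called between stroke and sham in neutrophils, monocytes, B cells or T cells at day 2 or day 14. The same sham libraries served both days. Members tested numbered 4 in neutrophils, 3 in monocytes, 13 in B cells and 9 in T cells. Of all genes, edgeR called 0% in neutrophils, 0% in monocytes, 0% in B cells and 0% in T cells at day 2, and 5.99%, 0.254%, 0.0114% and 0% at day 14. At an unadjusted p under 0.05, members numbered 2, 0, 2 and 1 at day 2 and 1, 1, 0 and 0 at day 14, in the same order, and DESeq2 called none. Cells with mitosis transcripts made up 0.255% to 0.667% of monocytes by group, above the highest neutrophil share in sham (0.541%) and at day 2 (0.667%). Thinned to 500 counts, monocytes gave 0.239% in sham and 0.0838% at day 2, and neutrophils 0.0796% and 0.178%. B cells gave 0.117% to 0.240%, none above the highest neutrophil share, which was that of day 2. Against neutrophils of the same group, B cells stood higher in sham and at day 14 and lower at day 2.

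Kif23, a kinesin of the central spindle, made up 83.2%, 84.2% and 86.1% of the mitosis sum of blood neutrophils in sham, day 2 and day 14. It stood at 108, 216, 112 and 154 CPM in sham, 206, 369.8, 223 and 137 CPM at day 2 and 290.4, 203 and 359 CPM at day 14. The stroke groups overlapped sham on both days, and Kif23 was not called on either day (log2 fold change 0.63, adjusted p = 0.997 at day 2, and 0.62, adjusted p = 0.181 at day 14). No neutrophil of 5451 in sham carried 2 S phase genes, which allows up to 0.0550% of cells with such transcripts detected at this depth; the limit covers counting error only and does not bound cells that express them. A mitosis sum in neutrophils was thus mostly the level of 1 gene. In blood B cells Cenpa made up 37.7 to 49.9% of the mitosis sum by group.

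The exception in blood was the small population annotated as precursors. Mitosis transcripts were found in 42 of 50 cells (84.0%) in sham, 126 of 144 cells (87.5%) at day 2 and 51 of 69 cells (73.9%) at day 14, and their pooled mitosis sums were 8869, 5747 and 7937 CPM. These cells came mostly from 1 library in sham and 1 at day 2, so the groups were not compared. Their subtypes, like those of microglia, were clustered on these same genes and are only described. At day 2, pre1 (Lyz2, Ly6c2, Elane, Prtn3 and the cytotoxic gene Gzma) gave 71.1% for mitosis and 68.4% for S phase of 38 cells. The subtype pre2 (Lyz2, Chil3, Ly6c2 and Ccr2) gave 95.6% and 35.6% of 45, and pre3 (S100a8, S100a9, Camp, Ngp and Ltf) gave 91.8% and 11.5% of 61. Of these subtypes pre3 had the lowest S phase share. Most of the day 2 cells came from replicate 4, where thinning to 500 counts left 27, 43 and 55 cells of pre1, pre2 and pre3. These gave 40.7%, 76.7% and 74.5% for mitosis and 18.5%, 11.6% and 1.82% for S phase.

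Monocyte-derived cells of the brain and monocytes of the blood were compared at day 2 over 4 libraries each, with tissue and preparation again not separable. Of 6 members tested, Cenpa was higher and Hmgb2 lower in brain, beside 13.4% of all genes called higher, 11.4% lower and 24.7% in all. Cenpa stood at 92.2, 43.0, 79.2 and 57.9 CPM in brain and 12.5, 18, 13.8 and 15.8 CPM in blood (log2 fold change 2.47 ± 0.343 (SE), adjusted p = 0.000243). Hmgb2 stood at 217, 245, 56.5 and 95.8 CPM in brain and 569, 522, 559.8 and 598 CPM in blood (log2 fold change -1.65 ± 0.363 (SE), adjusted p = 0.00544). In both the tissues did not overlap. Kif23 (-2.35, adjusted p = 0.0769), Mcm3 (-0.05), Mcm4 (0.10) and Pcna (0.20) did not pass; Mcm4 and Pcna changed sign without TMM scaling, and Mcm3 with DESeq2 and without the filter on low counts. Genes of the second list differed more: cyclin D1, Ccnd1, was higher in brain by 4.64 log2 units and Cdkn1a by 3.74 (1386 against 130.4 CPM), and Ccnd3 (-1.28) and Rbl2 (-2.17) were lower.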

How the data were processed

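The authors deposited, for each of 29 Drop-seq libraries, a table of expected counts per gene and cell with the cell type annotation; the values need not be whole. Per the submitters' processing notes, Seurat and the mm10 build were used; the aligner and counter are not given in the sources used here. Expected counts were summed per library and deposited cell type, then rounded. Types with fewer than 20 cells in a library left that library out of the fit. Each of 21 comparisons was fitted across all genes with edgeR 4.0.16 (R 4.3.3): filterByExpr, TMM scaling, quasi-likelihood test, Benjamini-Hochberg adjustment, calls at an adjusted p of 0.05. The young groups of a tissue and type entered 1 fit, the aged comparison was fitted with the young groups of day 2, and brain was set against blood in fits of those groups alone. CPM are counts scaled to 1000000 per type and library, without TMM scaling. DESeq2 1.42.0 was an alternative, and shares, thinning to 500 counts and figures used Python 3.11.15 with pandas 2.3.3, scipy 1.17.1 and matplotlib 3.10.9. The test was tried on simulated counts for microglia at day 2 against sham over 10145 genes: 75.5% of 49 genes changed 4-fold and 98% of 49 changed 8-fold were called, 90% of 50 changed 16-fold, 10.2% of 49 changed 2-fold, and 4 of 9594 unchanged genes.

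Members named with values in every library were, per role, those with the 2 highest mean CPM in the compared groups; others named beside them (Mcm6, Rrm2, Aurka, Birc5, the tested T cell members) were chosen after their values were seen. The members, lists and comparisons were chosen with earlier results of these data known. Each brain library carried a run identifier of its own, so runs could not be compared within groups. Same-numbered libraries deviated together, with every pair's correlation over 0.1, in monocyte-derived cells (0.28 to 0.72) and brain dendritic cells (0.22 to 0.63) of days 14 and 2, and in no other comparison. Doublets were sought with Scrublet in scanpy 1.11.5, which marked 38 of 106977 cells (0 to 0.225% per library) and was taken not to have worked; the 5% of cells with the most counts were left out as an alternative chosen after seeing the data.

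Values of 1 gene are not reported here.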

Additional observations from a re-analysis of the deposited data

Results flagged for a closer look

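In 60 checks for a library far from the rest, each of 1 measure in 1 group of 4 libraries, 3 found such a library. The cut-off gives about 1 in 20 for independent, normally distributed values. Measures of the same group are not independent, and shares at 0 in all other libraries are not normally distributed. In blood T cells at day 2 after stroke, replicate 4 had 0.826% of cells with at least 2 mitosis genes, and the other libraries had 0. In sham monocyte-derived cells of the brain, replicate 4 had 2.33% and the others 0, in a group with 1 counted cell in all. In sham brain dendritic cells, replicate 1 had a log2 ratio of S phase over mitosis CPM of -0.41, and the nearest library stood at 1.46.

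Stmn1 moved in opposite directions at day 2 against sham, with a log2 fold change of 3.68 in microglia and -1.42 in brain endothelial cells. Cenpa had a log2 fold change of 4.90 in microglia and -0.65 in blood B cells, where it was not called. Both genes were picked because every stroke library stood on one side of sham in each cell type, with opposite signs. The share of all genes that meet this rule was not counted, and the difference between cell types was not tested.

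Outside the comparisons, the 1 aged library of day 14 after stroke held mitosis transcripts in 19 of 345 T cells, 5.51% (exact 95% interval 3.35 to 8.47%). The higher of the aged sham libraries stood at 1.31%.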

How the results depend on the processing

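Counts of members called kept their direction under DESeq2, without TMM scaling and without the filter, with these exceptions. For microglia at day 14 against sham 8 members were called when only the compared groups were fitted, and for aged microglia 0 (10 without the first aged stroke female). Without the filter, the dendritic cell count was 0 and that of brain against blood T cells 20; the latter was 6 without the 5% of cells with the most counts, an alternative chosen after seeing the data. Leaving out 1 library at a time gave 33 to 37 members at day 2 against sham, 15 to 25 at day 14 against sham, 27 to 37 at day 14 against day 2, 0 to 33 in aged microglia, 0 to 1 in dendritic cells and in border-associated macrophages, 1 to 1 in endothelial cells, 2 to 3 in brain against blood monocytes and 5 to 13 in T cells, and 0 in the other comparisons.

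The all-gene median log2 fold change moved by -0.23 with DESeq2, which changes size factors, dispersion model and test together, and by -0.17 without TMM at day 2 against sham, where the share of calls that were higher went from 49.9% to 35.9% and 37.5%. At day 14 against sham the shifts were -0.15 and -0.45 and the share went from 69.4% to 57.7% and 19.6%. At day 14 against day 2 the shift without TMM was -0.29 and the share went from 50.1% to 17.5%. In aged microglia the shift with DESeq2 was -0.20 and the share went from 77.3% to 56.4%. In brain against blood monocytes without TMM the shift was -0.24 (54.1% to 36.7%), and in T cells 0.15 (71.7% to 85.9%). Relative to all genes, the members' median was 5.83, 5.95 and 5.85 at day 2 and 2.59, 2.69 and 2.60 at day 14 with edgeR and TMM, with DESeq2 and with edgeR without TMM.

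Shares of cells, as means over libraries, moved with the number of genes asked for. With at least 1 mitosis gene they were 1.67% in sham microglia, 10.7% at day 14, 2.95% in aged sham, 32.4% in aged stroke at day 2, 18.3% in brain T cells and 6.72% in blood T cells of day 14, and 13% in neutrophils of day 2. With at least 3 genes blood T cells gave 0.0388% and neutrophils 0, and with cells thinned to 500 counts the mean over the sham microglia libraries was 0.358% (0.251% over all cells pooled). Mean shares without 1 library ranged over 0.157 to 0.211% in sham microglia, 21.7 to 35.0% at day 2, 2.78 to 4.13% at day 14, 0 to 0.377% in aged sham, 18.4 to 26.2% in aged stroke at day 2, 6.48 to 8.06% in brain T cells, 0.233 to 0.527% in blood T cells and 0.27 to 0.368% in neutrophils. The log2 ratio of S phase over mitosis less that of young day 2 microglia was 3.30 in sham and 1.38 at day 14 without Top2a, Mki67 and Pcna, and 3.10 and 0.92 from the median gene. Without 1 library it ranged over 3.98 to 4.40 in sham, 1.64 to 1.88 at day 14, 0.57 to 1.15 in aged stroke, 3.52 to 4.30 in aged sham and 0.40 to 0.67 in brain T cells.

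Signs turned only for members that were not called. In microglia at day 14 against sham, Pcna was 0.022 with cells of at least 500 counts, Mcm3 -0.11 without TMM, and Tyms -0.049 with DESeq2, -0.35 without TMM and -0.14 without the deepest cells. Without 1 library at a time Pcna ranged over -0.47 to 0.083, Tyms over -0.24 to 0.25 and Hmgb2 over -0.70 to 0.048, turning sign without sham replicate 3 or day 14 replicate 2 (Pcna), day 14 replicate 3 (Tyms) and sham replicate 3 (Hmgb2). In brain against blood monocytes, Pcna was -0.036 and Mcm4 -0.13 without TMM, and Mcm3 0.052 with DESeq2 and 0.088 without the filter. Without 1 library at a time Mcm3 ranged over -0.21 to 0.20 and Mcm4 over -0.053 to 0.56, turning without blood replicate 1 or 4 (Mcm3) and blood replicate 2 or 4 (Mcm4). The causes were not tested.

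With the replicate number as a block, members called numbered 34 at day 2, 19 at day 14 and 34 between the days in microglia, 3 in monocytes of brain against blood, 9 in T cells, and 1 each in dendritic and endothelial cells; no paired fit was made for aged mice. Where the numbers paired the libraries, the block raised the genes called between days from 145 to 469 in monocyte-derived and from 39 to 111 in dendritic cells, with 0 and 1 members called as before. Depth limits single cells: a median of 321 to 1363 counts per brain cell leaves many members at 0 in cells that may carry them, and sham groups hold few or no counts of many mitosis genes.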

Other observations

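Natural killer cells of the brain at day 14 after stroke held mitosis transcripts in 9 of 349 cells (2.58%), and S phase transcripts in 6.02%; thinned to 500 counts the mitosis share was 1.42%. Cells annotated as granulocytes in aged sham brain gave 6 of 76 cells (7.89%) from few cells, against 5 of 517 (0.967%) in young sham brain and 3 of 204 (1.47%) in aged stroke at day 2. Border-associated macrophages of aged stroke at day 2 gave 5 of 103 cells (4.85%) for mitosis and 10.7% for S phase, and thinned to 500 counts none of 70 cells remained counted for mitosis. These groups entered no comparison, and their differences were not tested.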
